A study of Panax ginseng with 12 samples.

Results

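Among 44953 assembled gene rows of Panax ginseng embryogenic callus, 37 carried a best Swiss-Prot hit to a CAMTA, ICE or HOS1 protein, the regulators that act upstream of the DREB1 genes in the cold response of plants. They were found by the words of the hit: calmodulin-binding transcription activator (31 rows), transcription factor ICE1 or SCREAM2 (4 rows) and the E3 ubiquitin-protein ligase HOS1 (2 rows). The search used the annotation and no expression value, but the families were chosen with earlier results of these data known. Panax ginseng is the medicinal ginseng of East Asia, and embryogenic callus is a cultured cell mass able to form somatic embryos. Calli had been held either at 5 °C, here called cold, or at 20 °C, the control, and total RNA was sequenced after 2, 4 and 6 days. Every combination of day and temperature had 2 libraries. No cultivar, age of callus or source plant is given in the sources used here, and the labels do not say that libraries of a group came from separate cultures, so p-values measure the spread between these libraries, which may be technical.

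CAMTA proteins are transcription factors that bind DNA through a CG-1 domain and bind calmodulin, so they are placed to read calcium signals. In Arabidopsis, CAMTA1, CAMTA2 and CAMTA3 act together in inducing DREB1 (also called CBF) genes in the cold, and CAMTA3 also holds back salicylic acid defence genes at warm temperature. ICE1, also named SCREAM (SCRM), and its close relative SCREAM2 (SCRM2) are basic helix-loop-helix factors that bind DREB1 promoters and that are also needed to form stomata. HOS1 is a RING-type ubiquitin ligase that targets ICE1 for degradation in Arabidopsis and is associated with the nuclear pore. ICE1 in particular is known to be controlled largely at the protein level, which RNA levels do not show.

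All 37 hits were to Arabidopsis thaliana proteins, and they covered CMTA1 (3 rows), CMTA2 (3), CMTA3 (11), CMTA4 (11), CMTA5 (2), CMTA6 (1), SCRM (3), SCRM2 (1) and HOS1 (2), where CMTA is the Swiss-Prot symbol for CAMTA. The rows are Trinity assembly genes (identifiers are printed here without their TRINITY prefix), and many are fragments. CAMTA rows were 253 to 3509 bases long with a median of 912, and 17 of the 31 were under 1000 bases. The 37 rows came from 26 assembly components, and 8 components with more than 1 member held 19 of them. In 3 components rows with different hits lay together, for example SCRM and SCRM2 in DN26857_c0, so the symbol of a row is its nearest Arabidopsis protein and not a proven ortholog. How reads were divided between related rows is not given in the sources used here, and the row values are therefore uncertain as gene values. The domain annotation gave 1 domain at most for a row. Among the CAMTA rows it was CG-1 in 7, the TIG fold in 5 and ankyrin repeats in 9, with none in 9. The remaining CAMTA row, CMTA1 DN28446_c0_g3, was listed with a proteasome domain, and 1 SCRM row, DN23536_c0_g2, with a PUA domain, which go against their hits. The other 3 ICE rows were listed with the helix-loop-helix domain, and 1 of the 2 HOS1 rows with the ELYS domain.

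Values are TPM, a transcript abundance scaled for length so that rows can be set beside each other. TPM keeps no read number, so depth per library is unknown. Library totals ran from 873298 to 929555 TPM and median TPM from 6.5 to 8.59, the highest in cold day 2 replicate 3. On the first principal component (32.6% of the variance) controls lay between -111 and -52.1 and cold libraries between 15.4 and 136, cold day 6 replicate 3 being nearest to the controls. Embryogenic markers were present: 10 rows for SERK1, SERK2, BBM2, WOX2, WOX8 and WOX9 summed to 444.6 to 976.5 TPM in control and 440.2 to 671.7 TPM in cold. Of these, SERK2 DN34592_c0_g2 rose, SERK1 DN26952_c0_g1 fell and 8 were not called (20% called, against 23.3% of all rows). The most abundant, WOX8 DN28053_c1_g1, was not called, at 389.4 ± 247.5 TPM in control and 293.5 ± 91.19 in cold. LEC1, LEC2, FUS3, ABI3, AGL15 and WUS were also on the planned marker list, but the 10 rows did not include them. Whether they were expressed is not shown. Xylem markers (13 rows) summed to 135.3 to 444.9 TPM in control and 147.6 to 335.3 in cold, seed storage markers (2 rows) to 46.5 to 214.7 and 47.75 to 100.8, and epidermal KCS rows (9) to 122.5 to 169 and 130.7 to 227. Among them 1 xylem row rose and 2 fell (23.1% called), 3 KCS rows rose (33.3% called) and 0 seed storage rows were called. Green cell markers (18 rows) summed to 162.3 to 202.7 TPM in control and 106.2 to 155.6 in cold, without overlap. Of these 18 rows 3 rose, 2 fell and 13 were not called (27.8% called, against 23.3% of all rows). The most abundant, psbB, fell from 88.9 ± 24.7 to 16.4 ± 9.49 TPM (SD, n = 6). Among the 3 that rose, CAB8 DN14173_c0_g1 went from 1.5 ± 0.53 to 8.22 ± 6.45 TPM. LHCB5 DN20704_c0_g2 rose from 1.8 ± 0.46 to 6.3 ± 3.18 TPM. The lower sum therefore does not give the direction of each green cell marker. Their part in the results below was not tested. In such bulk RNA, fewer cells of a type and less RNA per cell cannot be told apart.

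At 20 °C the most abundant members were CMTA2 DN32217_c0_g2 at 54.2 ± 9.40 TPM (SD, n = 6 libraries), CMTA6 DN32707_c0_g1 at 51.9 ± 11, CMTA4 DN34268_c0_g3 at 48.7 ± 7.39 and CMTA3 DN35293_c1_g2 at 42.6 ± 8.70. In the cold the order at the top was CMTA4 DN34268_c0_g3 at 85.5 ± 29.9 TPM, CMTA2 DN32217_c0_g2 at 66.2 ± 19.0, CMTA6 at 58.0 ± 11.9 and CMTA4 DN24824_c0_g1 at 53.2 ± 33.8. No step between neighbours in either order exceeded the larger of their SDs (0 of 36 steps at each temperature). ICE and HOS1 rows had control means between 4.05 and 10.5 TPM, and the lowest CAMTA row was CMTA3 DN34913_c1_g1 at 3.0 TPM.

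**Figure D1:**
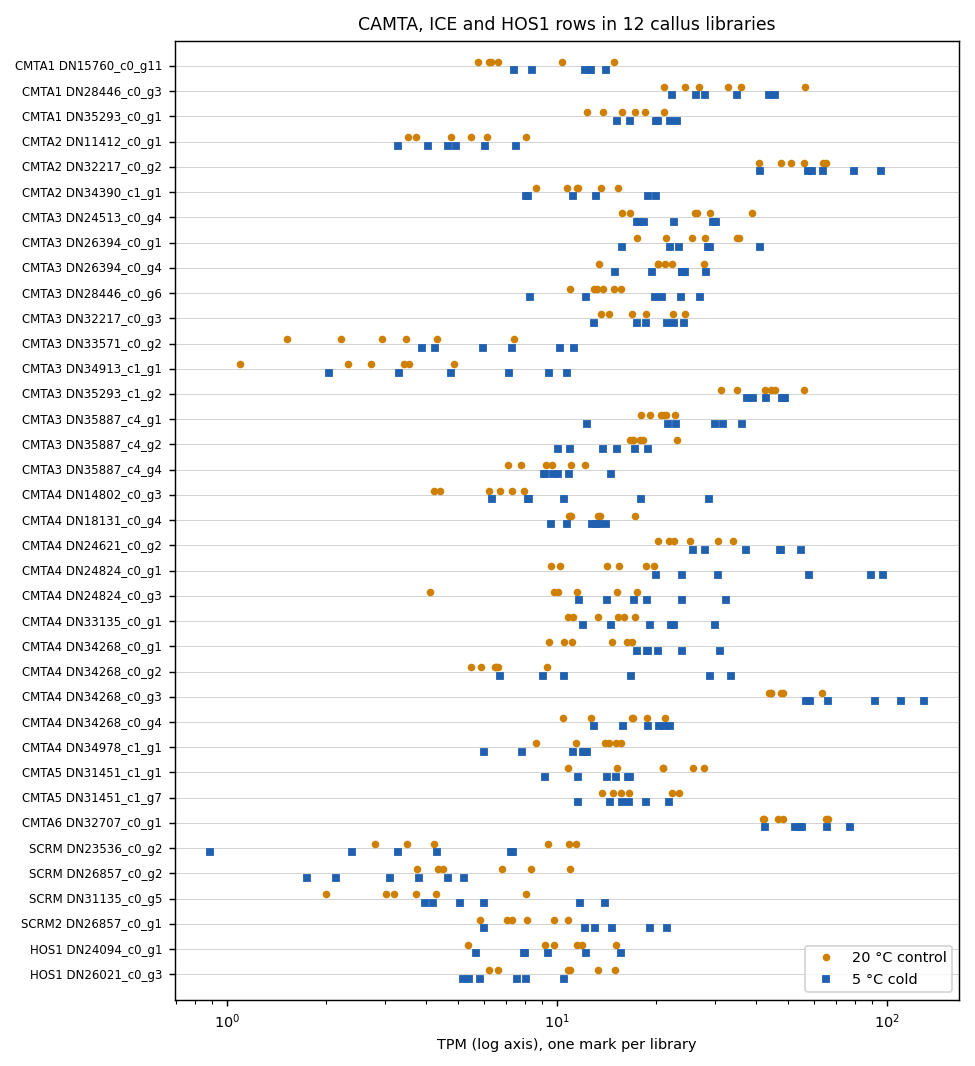
TPM of each of the 37 rows on a log axis, 1 mark per library (circles 20 °C, squares 5 °C). Most rows overlap between temperatures, while the 6 cold libraries of CMTA4 DN24824_c0_g1 and DN34268_c0_g1 all lie above their 6 control libraries.

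In the cold, 6 of the 37 rows rose and none fell: 5 of the 11 CMTA4 rows and the SCRM2 row. Differences were computed from log2(TPM + 1), so the change of low rows is understated, and are means over the 3 daily differences unless a day is named. A row is called at a Benjamini-Hochberg adjusted p of 0.05 or less over all 44600 rows tested with limma. All 37 passed the filter on low values. The 6 calls are 16.2% of the members, against 23.3% of all rows tested (11.3% higher and 12% lower), so the members as a whole were not called more often than other rows. Their median difference was 0.16 against -0.05 over all rows, and 25 of 37 were above 0, against 47.5% of all rows. At an unadjusted p under 0.05 there were 11 rows, 1 of them lower in the cold. The share of all rows at that limit is not given here. This count, and the like counts for the lists below, therefore have no background. In 2 rows the 6 cold values all lay above the 6 control values and in none below, against 3.27% and 3.84% of all rows (7.11% in either direction).

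**Figure D2:**
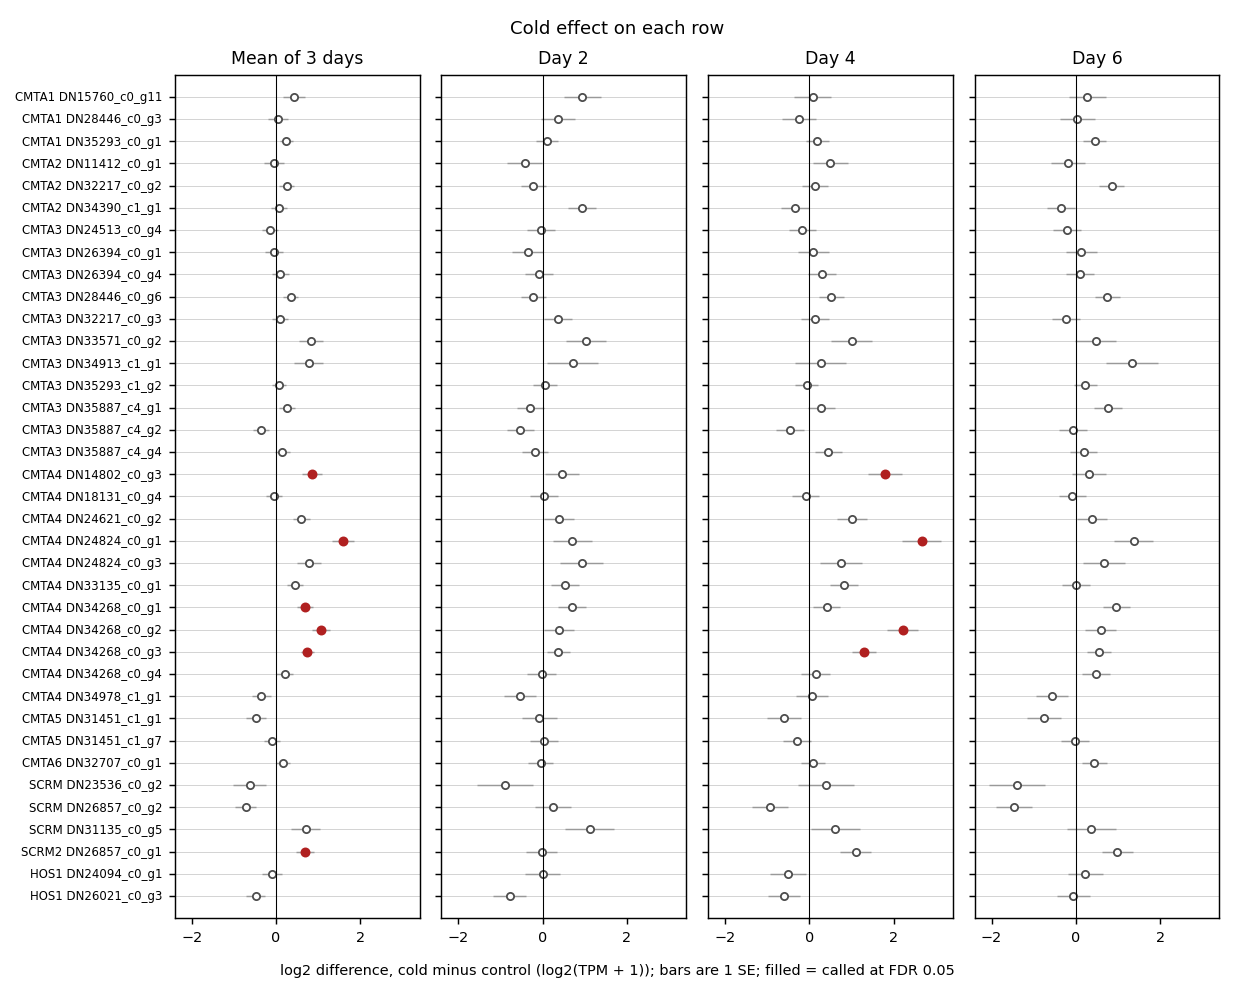
Log2 difference of each row, cold minus control, for the mean of the 3 days and for days 2, 4 and 6; bars are 1 SE from limma and filled marks passed the adjusted threshold. The filled marks are 5 CMTA4 rows and SCRM2 for the mean and 4 CMTA4 rows on day 4.

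The largest rise was that of CMTA4 DN24824_c0_g1, a row of 3075 bases. Its control libraries stood at 14.2 and 15.4 TPM on day 2, 18.6 and 10.2 on day 4, and 9.61 and 19.7 on day 6. Its cold libraries stood at 19.9 and 30.8 TPM on day 2, 89.4 and 97.0 on day 4, and 57.9 and 24.0 on day 6. Every cold library was above every control library, the nearest pair being 19.88 and 19.73 TPM. The mean went from 14.6 ± 4.17 to 53.2 ± 33.8 TPM (SD, n = 6), and the log2 difference was 1.58 (standard error, SE, 0.27; limma with Benjamini-Hochberg adjusted p = 0.0032), or 2.99-fold. By day the log2 difference was 0.71 on day 2 (limma with Benjamini-Hochberg adjusted p = 0.44), 2.67 on day 4 (SE 0.46; adjusted p = 0.012) and 1.37 on day 6 (adjusted p = 0.17).

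Component DN34268_c0 held 4 CMTA4 rows, of which 3 rose. DN34268_c0_g2, a row of 2074 bases with the TIG domain, stood at 5.88 and 6.5 TPM on day 2, 6.52 and 5.48 on day 4, and 6.61 and 9.35 on day 6 in control. In the cold it stood at 6.70 and 10.5 TPM on day 2, 29.2 and 33.7 on day 4, and 16.7 and 9.07 on day 6. Both day 4 cold libraries were more than 3 times every control library, while cold day 2 replicate 1 and cold day 6 replicate 3 lay inside the control range. The log2 difference was 1.06 (SE 0.21; limma with Benjamini-Hochberg adjusted p = 0.0065), and 2.21 on day 4 (SE 0.36; adjusted p = 0.011).

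DN34268_c0_g3, a row of 420 bases, was the most abundant CMTA4 row. It stood at 44.0 and 44.5 TPM on day 2, 48.4 and 47.6 on day 4, and 44.5 and 63.3 on day 6 in control, and at 58.6 and 56.7, 129 and 110.0, and 92.2 and 66.3 TPM in the cold on the same days. Both cold libraries of each day were above both control libraries of that day. The log2 difference was 0.74 (SE 0.16; limma with Benjamini-Hochberg adjusted p = 0.0092), and 1.30 on day 4 (SE 0.28; adjusted p = 0.022). DN34268_c0_g1, a row of 686 bases, had its highest cold library on day 6, while DN34268_c0_g2 and DN34268_c0_g3 had theirs on day 4. The courses were not compared by a test. Control libraries of DN34268_c0_g1 ran from 9.48 to 16.9 TPM. Its cold libraries were at 18.8 and 17.5 on day 2, 23.9 and 18.8 on day 4, and 31.2 and 20.25 on day 6, all above control. It had a log2 difference of 0.69 (SE 0.19; limma with Benjamini-Hochberg adjusted p = 0.025), with 0.41 on day 4 (adjusted p = 0.45). The remaining row of the component, DN34268_c0_g4, which carries ankyrin repeats, was not called.

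CMTA4 DN14802_c0_g3, a row of 893 bases with the DNA-binding CG-1 domain, rose from 6.13 ± 1.51 to 13.4 ± 8.65 TPM (SD, n = 6). Its control libraries lay between 4.23 and 7.92 TPM, and its cold libraries were at 8.21 and 8.17 on day 2, 18.0 and 28.9 on day 4, and 10.5 and 6.34 on day 6. Cold day 6 replicate 3 lay inside the control range and the other 5 above it. The log2 difference was 0.85 (SE 0.23; limma with Benjamini-Hochberg adjusted p = 0.024), and 1.80 on day 4 (SE 0.40; adjusted p = 0.025).

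**Figure D3:**
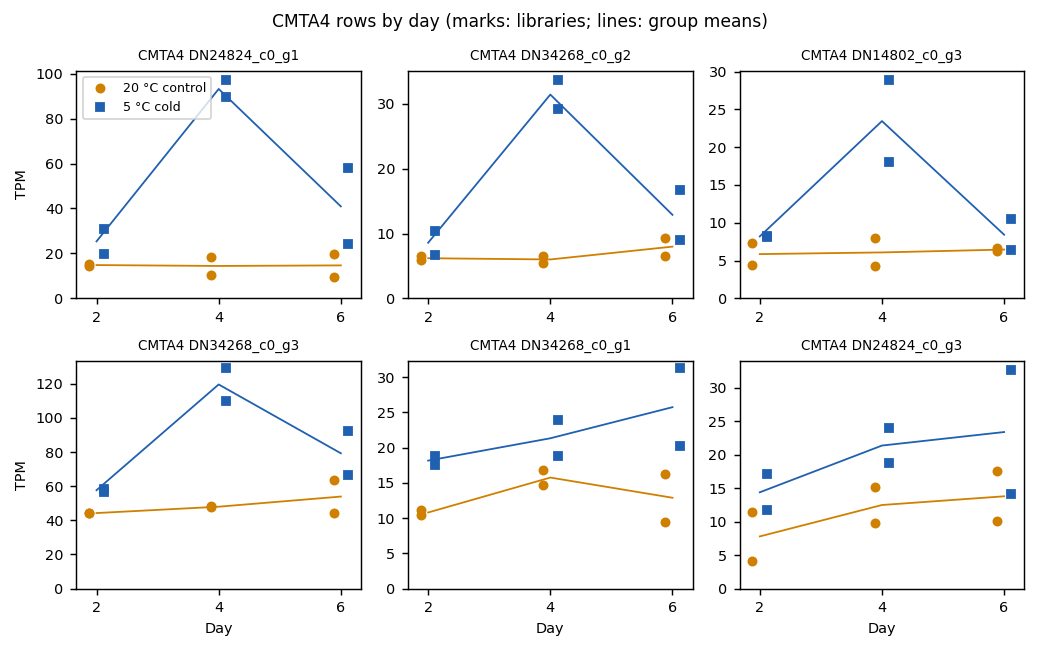
TPM by day for the 5 CMTA4 rows that rose and for DN24824_c0_g3, which was not called (marks are libraries, lines are group means of 2). In DN24824_c0_g1, DN34268_c0_g2, DN34268_c0_g3 and DN14802_c0_g3 the 2 highest libraries are those of cold day 4.

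The first 3 of these rows, DN24824_c0_g1, DN34268_c0_g2 and DN34268_c0_g3, stayed called whichever of the 12 libraries was left out, with highest Benjamini-Hochberg adjusted p-values from limma of 0.014, 0.027 and 0.032. DN14802_c0_g3 lost it without control day 2 replicate 3, control day 4 replicate 1, cold day 4 replicate 2 or cold day 6 replicate 2 (adjusted p up to 0.082), and DN34268_c0_g1 without control day 4 replicate 2, control day 6 replicate 2, cold day 4 replicate 1 or cold day 6 replicate 2 (up to 0.078). Without cold day 6 replicate 2 the 3 stable rows were the members called, in place of 6.

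The other 6 CMTA4 rows were not called. DN24621_c0_g2 came nearest, with a log2 difference of 0.59 from 25.8 ± 5.52 TPM in control (limma with Benjamini-Hochberg adjusted p = 0.055), followed by DN24824_c0_g3 at 0.78 (adjusted p = 0.073) and DN33135_c0_g1 at 0.46 (adjusted p = 0.10). Of all 11 CMTA4 rows 9 were above 0 with a median of 0.69, and on day 4 it was 10 with a median of 0.83, against an all-row median of -0.16 on that day. The 11 rows share components and hits and are not independent of each other. Summed over the 11 rows, CMTA4 had 152.62 to 235.91 TPM in control and, in the cold, 227.08 and 219.05 on day 2, 434.29 and 425.53 on day 4, and 349.32 and 219.67 on day 6. Cold exceeded control within each day's mean, and the ranges overlapped through control day 6 replicate 3. In a fit of rows summed by hit, this CMTA4 sum had a log2 difference of 0.72 (SE 0.16; limma with Benjamini-Hochberg adjusted p = 0.01 over 10362 hits) and of 1.23 on day 4 (adjusted p = 0.021).

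The 20 rows of the other CAMTA hits gave no call for the mean, with 1 at an unadjusted p under 0.05 and 14 above 0 (median 0.10, range -0.48 to 0.83). CMTA3, whose Arabidopsis protein is the best known cold inducer of DREB1 in the family, had 11 rows and none called. Its row DN33571_c0_g2 had the smallest p of them: 3.65 ± 2.08 TPM in control and, in the cold, 11.2 and 10.2 on day 2, 5.96 and 7.32 on day 4, and 4.27 and 3.90 on day 6 (log2 difference 0.83, SE 0.28; limma with Benjamini-Hochberg adjusted p = 0.051). Its cold values were highest on day 2, unlike the called CMTA4 rows, and the temperatures overlapped, with controls up to 7.40 TPM (day 2 replicate 1). The CMTA3 sum over 11 rows had a log2 difference of 0.10 (limma with Benjamini-Hochberg adjusted p = 0.6). The CMTA2 row DN34390_c1_g1 stood at 8.64 and 10.7 TPM in control and 19.9 and 18.9 in cold on day 2, and at 8.04 and 13.1 in cold on day 4, where control had 15.3 and 11.6. It gave the unadjusted p under 0.05 on day 2 (0.015) and was not called. The lowest difference of a CAMTA row was -0.48, in CMTA5 DN31451_c1_g1 (limma with Benjamini-Hochberg adjusted p = 0.15), and CMTA6 had 51.9 ± 11 TPM in control and 58.0 ± 11.9 in cold (adjusted p = 0.52). These p-values do not show that the levels were equal.

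The 4 ICE rows moved in different directions. The SCRM2 row DN26857_c0_g1 (3146 bases) was at 7.05 and 10.8 TPM on day 2, 8.09 and 9.78 on day 4, and 7.31 and 5.82 on day 6 in control. In the cold it was at 6.01 and 12.1 TPM on day 2, 21.5 and 19.1 on day 4, and 13.0 and 14.7 on day 6. On day 2 the groups overlapped, and on days 4 and 6 the cold libraries were above every control library. The log2 difference was 0.69 (SE 0.21; limma with Benjamini-Hochberg adjusted p = 0.037), with -0.02 on day 2, 1.10 on day 4 (adjusted p = 0.081) and 0.98 on day 6 (adjusted p = 0.21). This call was fragile: of the 12 fits that left out 1 library it held without control day 2 replicate 3 (limma with Benjamini-Hochberg adjusted p = 0.037) and without cold day 2 replicate 1 (0.019), and without each of the other 10 libraries the adjusted p was 0.052 to 0.091.

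SCRM DN26857_c0_g2 lies in the same assembly component as the SCRM2 row. Its control libraries were at 3.75 and 4.34 TPM on day 2, 8.32 and 6.80 on day 4, and 4.52 and 10.9 on day 6, and its cold libraries at 5.23 and 4.66, 3.12 and 3.82, and 1.74 and 2.13 TPM. On days 4 and 6 the cold libraries were below both controls of their day, and on day 2 above them. The log2 difference was -0.72 (SE 0.25; limma with Benjamini-Hochberg adjusted p = 0.054), which missed the threshold; it was called without control day 6 replicate 2 and in limma without the variance trend. The SCRM2 to SCRM ratio of TPM in this component was 0.533 to 2.48 in control, 1.15 and 2.60 in cold on day 2, and 4.99 to 7.49 in the 4 cold libraries of days 4 and 6. The log2 ratio of TPM + 1 was higher in the cold by 1.41, with an exact two-sided permutation p of 0.037 over the 216 arrangements of libraries within days, the smallest possible being 0.0093. This ratio was chosen after its values were seen. The rows share a component, so a different division of reads between them would also move it; this was not tested.

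The other 2 SCRM rows did not differ beyond their spread. DN31135_c0_g5 was at 4.05 ± 2.10 TPM in control and had a log2 difference of 0.70 (limma with Benjamini-Hochberg adjusted p = 0.15), with cold day 2 replicate 3 at 13.9 and its partner at 3.99 TPM. DN23536_c0_g2, the short row with the PUA domain, ranged from 2.80 to 11.4 TPM in control and from 0.89 to 7.35 in cold (log2 difference -0.63; adjusted p = 0.25).

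Neither HOS1 row was called. DN24094_c0_g1 was at 15.1 and 9.76 TPM on day 2, 11.9 and 11.5 on day 4, and 5.36 and 9.17 on day 6 in control, and at 9.36 and 15.6, 7.92 and 7.98, and 5.68 and 12.2 TPM in the cold. The groups overlapped on days 2 and 6, and the mean went from 10.5 ± 3.24 to 9.80 ± 3.57 TPM (SD, n = 6; log2 difference -0.09, limma with Benjamini-Hochberg adjusted p = 0.80). DN26021_c0_g3 was at 15.0 and 13.3 TPM on day 2, 6.61 and 10.9 on day 4, and 6.20 and 10.8 on day 6 in control, and at 7.56 and 8.05, 5.39 and 5.20, and 5.82 and 10.5 TPM in the cold. On days 2 and 4 the cold libraries were below both controls of their day, and on day 6 they overlapped. Its log2 difference was -0.48 (limma with Benjamini-Hochberg adjusted p = 0.14).

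**Figure D4:**
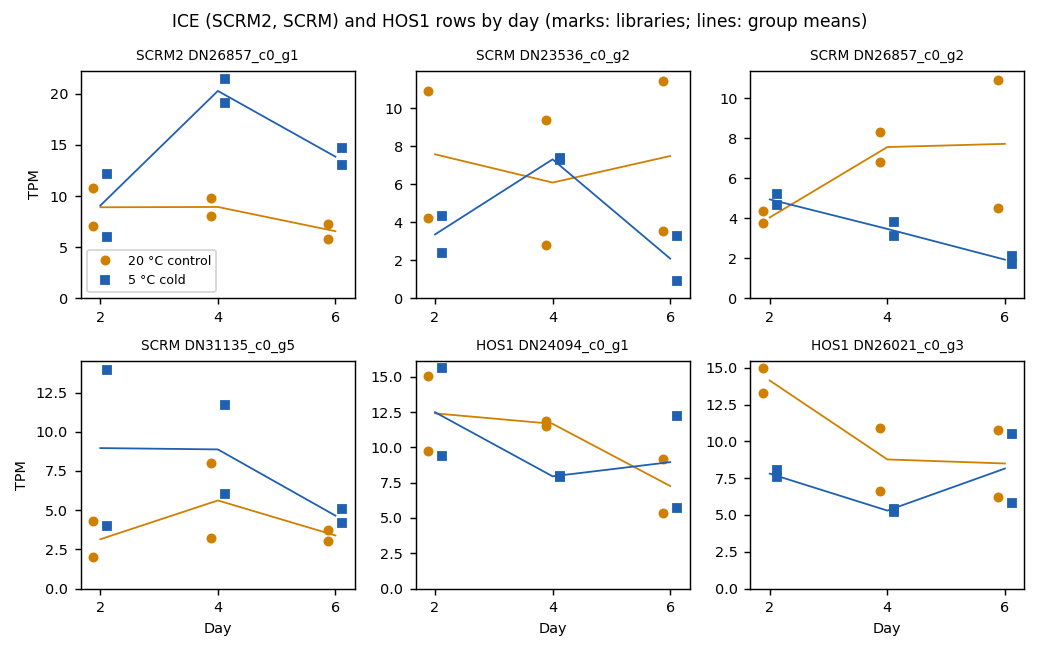
TPM by day for the 4 ICE rows and the 2 HOS1 rows (marks are libraries, lines are group means of 2). SCRM2 DN26857_c0_g1 reaches 21.5 and 19.1 TPM in cold on day 4, while SCRM DN26857_c0_g2 is at 1.74 and 2.13 TPM in cold on day 6.

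By day, the members' calls were on day 4. Shares of all rows in this paragraph are of rows called at the adjusted threshold. The like share at an unadjusted p under 0.05 is not given here, so the unadjusted counts have no background. On day 2, 0 of 37 rows were called by limma (1 at an unadjusted p under 0.05), against 1.76% of all rows (1.48% higher and 0.287% lower). On day 4, 4 rows rose, against 8.38% of all rows called (4.07% higher and 4.3% lower). They were the CMTA4 rows DN24824_c0_g1, DN34268_c0_g2, DN34268_c0_g3 and DN14802_c0_g3, and 7 members were at an unadjusted p under 0.05. On day 6, 0 rows were called by limma (7 at an unadjusted p under 0.05), against 0.484% of all rows (0.318% higher and 0.166% lower). The day 4 calls rest on all 4 libraries of that day: without either control or either cold library of day 4, 0 members were called, and between 12 and 152 of all rows were, in place of 3736. In the cold group the rise from day 2 to day 4 was 1.87 for DN24824_c0_g1 and 1.78 for DN34268_c0_g2 on the log2 scale, and the limma test of change over days in the cold gave Benjamini-Hochberg adjusted p-values of 0.12 and 0.081. By that test 0 members were called, against 0.601% of all rows called, and 8 members were at an unadjusted p under 0.05. For change over days in control 0 members and 0% of all rows were called, and 0 members were at an unadjusted p under 0.05. The limma test that the 3 daily cold effects differ called 0 members and 0.0157% of all rows, and 5 members were at an unadjusted p under 0.05. Thus no member is shown to respond to cold differently on different days.

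The genes of the pathway around these regulators were taken from word lists on the same annotation. The lists were chosen with earlier results of these data known, so their shares of called rows are descriptions and not tests. Rows of the same hit are not independent of each other. Downstream, the DREB1 list held 2 DREB1A rows, of which 1 rose (50% called, against 23.3% of all rows). DREB1A encodes an AP2 factor that switches on cold-regulated genes. Row DN12825_c0_g2 was at 0.04 to 0.98 TPM in the 6 control libraries and, in the cold, at 17.5 and 31.9 on day 2, 1.54 and 1.48 on day 4, and 3.53 and 1.90 on day 6. All cold libraries exceeded all controls, and those of day 2 were the highest. No row of the deposited table has a highest value under 6.01 TPM, and only the day 2 cold libraries of this row exceed that. The row is thus in the table through the group where it is high, and its call is a description. Its log2 difference was 2.26 (SE 0.30; limma with Benjamini-Hochberg adjusted p = 0.0014), and 4.52 on day 2 (SE 0.53; adjusted p = 0.0048). In the cold it fell by 3.30 on the log2 scale from day 2 to day 4 (limma with Benjamini-Hochberg adjusted p = 0.035). The called CMTA4 rows and the SCRM2 row had higher mean cold levels on day 4 than on day 2. None of these rises was called (limma with Benjamini-Hochberg adjusted p = 0.077 to 0.8). The courses of these rows and of DREB1A were not compared by a test. The day 2 call of DREB1A was lost with only the 4 libraries of that day (adjusted p = 0.24 from limma) and without replicate 3 of both cold day 2 and cold day 6 (0.056). The second DREB1A row, DN12986_c0_g1, had 3.38 ± 3.45 TPM in control and 3.44 ± 3.55 in cold and was not called, and summed with it DREB1A was not called either (limma with Benjamini-Hochberg adjusted p = 0.064).

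A list of proteins that in Arabidopsis act on ICE1, in the kinase cascade upstream of it, or, as EIN3 does, on DREB1 promoters had 31 rows with their relatives, of which 9 rose and none fell (22 not called, 16 at an unadjusted p under 0.05; median log2 difference 0.45). That is 29% called, against 23.3% of all rows (11.3% higher). Among them were 3 rows of MPK3, a kinase that phosphorylates ICE1 and promotes its degradation in Arabidopsis. These 3 rows lie in 1 assembly component, DN35317_c1, and may not be separate genes. MPK3 DN35317_c1_g2 rose from 29.6 ± 7.98 to 115 ± 52.7 TPM (SD, n = 6; log2 difference 1.85, SE 0.21; limma with Benjamini-Hochberg adjusted p = 0.00074), and DN35317_c1_g1 from 12.4 ± 3.29 to 45.4 ± 25.4 TPM (adjusted p = 0.0011). The other called rows were 1 more MPK3 row and 1 each for SIZ1, the ligase that attaches SUMO to ICE1, the calcium-regulated receptor kinases CRLK1 and CRLK2, SRK2E, which phosphorylates and stabilises ICE1, and the kinase homologs NTF4 and MMK2. Other rows of several of these hits were not called, and some were lower in the cold. SIZ1 rows ran from -0.49 to 0.88 in log2 difference. Uncalled CRLK2 rows were at -0.21 and -0.57 and uncalled MMK2 rows at -0.60 and -0.27, while those of CRLK1 (0.84), MPK3 (DN31722_c1_g1, 0.88) and SRK2E (0.55) were above 0. Sums by hit are not given here for this list. The most abundant of the list, EIN3, had 84.3 ± 23.1 TPM in control and 79.4 ± 18.1 in cold. Calmodulins, the calcium sensors that CAMTA proteins bind, had 4 rows, of which 3 were tested and 0 called by limma (1 at an unadjusted p under 0.05); the most abundant, DN32567_c2_g2, was at 4544 ± 846 TPM in control and 4817 ± 1485 in cold.

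The list of CAMTA3 defence targets with ZAT10 and ZAT12 had 40 rows, of which 4 rose, 2 fell and 34 were not called (median log2 difference 0.20). That is 15% called, below the 23.3% of all rows. ZAT10, a zinc finger repressor induced by cold and other stresses, had 2 rows that rose. Its row DN19422_c0_g4 was at 14.2 ± 5.53 TPM in control and, in the cold, at 93.7 and 30.3 on day 2, 275 and 199 on day 4, and 44.4 and 24.7 on day 6, all above control (log2 difference 2.41, SE 0.27; limma with Benjamini-Hochberg adjusted p = 0.00074). The others that rose were NDR1, a membrane protein of disease resistance signalling, and NHL3, its relative, which entered the list by name; the 2 that fell were rows of EDR2L, a relative of a negative regulator of defence cell death. NHL3 DN17649_c0_g3 had a log2 difference of 2.04 (SE 0.25; limma with Benjamini-Hochberg adjusted p = 0.0011) and EDR2L DN24579_c0_g3 of -0.76 (SE 0.18; adjusted p = 0.014). The other EDR2L row, DN32852_c0_g1 (-0.64; adjusted p = 0.039), lost its call in 9 of the 12 fits that left out 1 library. Summed over the 6 EDR2L rows, 3 of which were above 0 without a call, the log2 difference was -0.11 (limma with Benjamini-Hochberg adjusted p = 0.52).

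The clock factors that regulate DREB1 genes in Arabidopsis had 7 rows, of which 6 rose and 1 fell (median log2 difference 1.26), so that 100% were called, against 23.3% of all rows (11.3% higher and 12% lower). This share describes a short list chosen with earlier results known and is not a test of it. The morning factor LHY rose in row DN33947_c0_g1 from 3.43 ± 1.26 to 18.0 ± 6.92 TPM (SD, n = 6; limma with Benjamini-Hochberg adjusted p = 0.00094), and CCA1 DN21385_c1_g1 from 3.05 ± 1.31 to 15.3 ± 7.54 TPM (adjusted p = 0.0013). APRR7, a repressor of the clock, fell from 23.3 ± 8.22 to 8.62 ± 3.88 TPM (limma with Benjamini-Hochberg adjusted p = 0.0046). The hour at which samples were taken is not given in the sources used here. Of 4 cold-regulated protein rows 1 rose, the dehydrin ERD14 (242.5 ± 175 to 1162 ± 342 TPM, limma with Benjamini-Hochberg adjusted p = 0.0024). The other 3 were not called. That is 25% called, near the 23.3% of all rows, and the median log2 difference of the list was 0.18.

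HOS1 partners, mostly subunits of the nuclear pore's outer ring, had 25 rows, of which none rose, 4 fell and 21 were not called (median log2 difference -0.20). That is 16% called, against 12% of all rows lower and 23.3% in either direction, and 9 were at an unadjusted p under 0.05, all lower. NUP96 DN34686_c0_g5 fell from 9.82 ± 1.08 to 4.81 ± 2.07 TPM (SD, n = 6; log2 difference -0.97, SE 0.22; limma with Benjamini-Hochberg adjusted p = 0.011). NUP107 fell in row DN22700_c0_g1 from 16.9 ± 3.64 to 9.65 ± 3.17 TPM (limma with Benjamini-Hochberg adjusted p = 0.02), a call lost in 4 of the 12 fits that left out 1 library (up to 0.059). The other 2 were a second NUP107 row and the chromatin protein MSI4. Summed by hit, neither NUP96 nor NUP107 was called (limma with Benjamini-Hochberg adjusted p = 0.055 and 0.06). The stomatal partners of SCREAM had 4 rows and 0 calls by limma (0 at an unadjusted p under 0.05); their most abundant, ERECTA, had 55.7 ± 2.94 TPM in control and 47.1 ± 5.64 in cold. SPCH, MUTE and FAMA were also on the planned list of stomatal partners, but the 4 rows did not include them. Whether these factors were expressed is not shown.

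**Figure D5:**
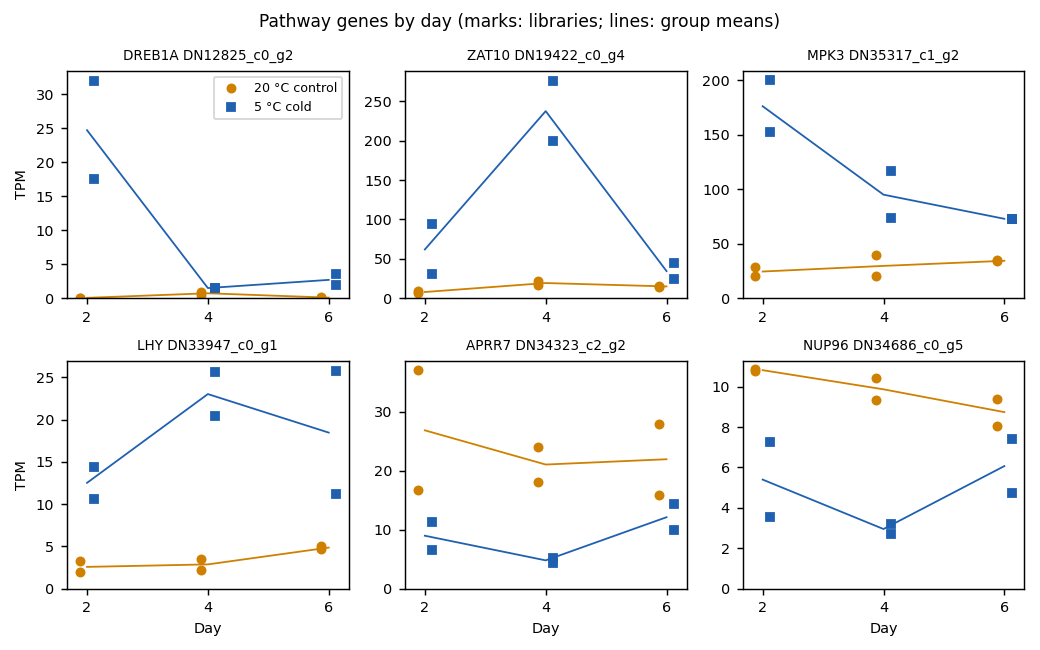
TPM by day for 6 pathway rows (marks are libraries, lines are group means of 2). DREB1A is highest in cold on day 2 (17.5 and 31.9 TPM), ZAT10 in cold on day 4 (275 and 199 TPM), and NUP96 is lower in every cold library than in every control library.

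For the most abundant row of each family, the rows outside the families with the most similar profile were sought among 16356 annotated rows by Pearson r of log2(TPM + 1) over the 12 libraries, as a description. The points share the temperature contrast, so r mostly ranks rows by how closely they follow the same libraries. CMTA4 DN34268_c0_g3 was followed most closely by the E3 ligase ARI2 (r = 0.987), a GDAP2 homolog (0.976), 2 rows of the E3 ligase UPL3 (0.973 each) and the F-box protein SKP2B (0.971). SCRM2 DN26857_c0_g1 was followed by the translocase subunit SCY1 (r = 0.936), a protein phosphatase 2C (0.93), FLXL1 (0.925), the kinase CDKF-4 (0.921) and the RNA-binding protein HEN4 (0.907). HOS1 DN24094_c0_g1 was followed by the corepressor LEUNIG (r = 0.93), the auxin response factor ARF15 (0.915), 2 rows of ANT (0.915 and 0.912), an AP2 factor of growth, and the clock factor BOA (0.911).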

How the data were processed

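The deposited table holds TPM per assembled gene for 12 libraries, made by the authors; no header names the unit, which was inferred from library totals. The submitters' processing notes name Salmon, edgeR, cutadapt and FastQC, without roles or versions, and assembly settings are not stated there. No row has a highest value under 6.01 TPM. TPM keeps no depth, so no counting interval can be given.

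Members were found by Swiss-Prot description. Members and lists were chosen with earlier results of these data known. Named pathway rows are, for each list, the called rows of lowest p (at most 2 for each direction) and the most abundant row. Values were taken as log2(TPM + 1), and the 353 of 44953 rows that did not reach 1 TPM in 2 or more libraries were left out. The 6 groups were fitted together in limma 3.58.1 (R 4.3.3) with a variance trend. Contrasts were cold minus control on each day, their mean, and F-tests of change over days. P-values were adjusted over 44600 rows by Benjamini-Hochberg at a false discovery rate of 0.05. The script was tested on simulated data. Alternatives tried were other pseudocounts, filters, scalings, blocks, rows summed by hit, array weights, no trend, a 2-fold threshold, and libraries left out. The R package data.table (1.17.8), python 3.11.15, pandas 2.3.3 and matplotlib 3.10.9 handled and drew the values.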

Additional observations from a re-analysis of the deposited data

How the results depend on the processing

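For the mean of the 3 days, 6 members were called; 2 with rows summed by Swiss-Prot hit (the CMTA4 and SCRM2 sums, out of 9 hits), 2 when a 2-fold change was also asked for, and 3 to 7 when each library was left out in turn, the lowest when cold day 6 replicate 2 was left out. Median ratio scaling called 8, adding CMTA3 DN33571_c0_g2 and CMTA4 DN24621_c0_g2. Without replicate 3 of both cold day 2 and cold day 6 (libraries known to stand apart on principal components), 6 were called, 5 of them shared, and SCRM2 was lost (adjusted p = 0.13). On day 4 the 4 calls became 2 with only the 4 libraries of the day and 1 with rows summed by hit, and 0 to 4 with libraries left out in turn; array weights called 6, adding CMTA4 DN24621_c0_g2 and SCRM2. For change over days in the cold 0 became 1, CMTA4 DN34268_c0_g2, with a pseudocount of 5 and 1 with array weights. Counts on days 2 and 6, for the difference between days and for change over days in control stayed at 0 when each library was left out.

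Same-numbered libraries did not deviate together across temperatures (r = -0.188 on day 2, 0.00743 on day 4 and -0.0122 on day 6). With 2 libraries a group there is a single such r per day, and the labels do not say what a number marks. Whether same-numbered libraries were handled together is therefore not known. With the replicate number as a block 6 members were called for the mean; with pairs within a day as the block, 4 for the mean and 2 on day 4; with the day 2 pairs crossed, chosen after seeing the data, 5.

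No called member changed sign in any fit, and the rows of 10 members that were not called did. The sum over all rows of a hit had the opposite sign to some of its rows: the CMTA2 sum (0.23) to DN11412_c0_g1, the CMTA3 sum (0.10) to DN24513_c0_g4, DN26394_c0_g1 and DN35887_c4_g2, the CMTA4 sum (0.72) to DN18131_c0_g4 and DN34978_c1_g1, and the SCRM sum (-0.29) to DN31135_c0_g5. Median ratio scaling gave 0.0026 for CMTA2 DN11412_c0_g1 and 0.0076 for CMTA3 DN26394_c0_g1. Over 13 fits, 12 with 1 library left out and 1 without replicate 3 of both cold day 2 and cold day 6, the ranges were -0.13 to 0.22 for CMTA1 DN28446_c0_g3, -0.17 to 0.086 for CMTA2 DN11412_c0_g1, -0.027 to 0.19 for CMTA2 DN34390_c1_g1, -0.20 to 0.12 for CMTA3 DN26394_c0_g1, -0.046 to 0.22 for CMTA3 DN26394_c0_g4, -0.028 to 0.21 for CMTA3 DN32217_c0_g3, -0.014 to 0.15 for CMTA3 DN35293_c1_g2, -0.15 to 0.053 for CMTA4 DN18131_c0_g4, -0.21 to 0.014 for CMTA5 DN31451_c1_g7 and -0.37 to 0.071 for HOS1 DN24094_c0_g1. The cause was not tested. Depth is unknown, and 2 libraries a group limit the precision of each daily value.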

Other observations

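A further 3 rows were named as calmodulin-binding transcription activators by the protein annotation but had no Swiss-Prot hit, so they are outside the 37. DN34913_c1_g2 (605 bases) was at 9.16 to 12.67 TPM in control and 6.53 to 17.67 TPM in cold. DN18131_c0_g1 (268 bases), which lies in the component of a CMTA4 row that was not called, was at 3.39 to 21.6 TPM in control and 1.23 to 8.22 TPM in cold. DN19015_c1_g2 (231 bases) was at 2.69 to 13.36 TPM in control and 3.49 to 8.43 TPM in cold. The ranges of the 3 rows overlapped between temperatures, and no test was made on them.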
